A study of Mus musculus with 12 samples.

Results

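H3K4me3, the trimethylation of histone H3 at lysine 4 that marks promoters of active or poised genes, was examined at the genes of fatty acid and sterol synthesis in adult mouse cardiomyocytes (CMs). The set comprised Acly, Acacb, Fasn, Scd1, Scd2, Elovl5, Elovl6, Srebf1 and Srebf2, and its members were all peaks that carried one of these gene names in a table of chromatin immunoprecipitation and sequencing (ChIP–seq) peaks. The rule gave 10 peaks of 9 genes among 15848 peaks, with 2 peaks for Srebf1 and 1 for each other gene. Nuclei were sorted from frozen ventricles by the marker PCM1. The 3 CtrlCre libraries came from mice with the αMHC-Cre transgene and unmodified Cpt1b, and the 3 Cpt1bcKO libraries from mice with αMHC-Cre and floxed Cpt1b, which was inactivated in CMs. Both genotypes therefore carried Cre recombinase under the CM promoter αMHC, on a C57BL/6 background with littermates as controls. Cpt1b encodes the carnitine palmitoyltransferase of muscle mitochondria, the entry step for oxidation of long-chain fatty acids. The comparison asked how H3K4me3 differed between CMs that could and could not oxidize these fatty acids. The labels give no age or sex per library and do not say that the libraries of a genotype came from separate animals, so p-values measure the spread between these libraries.

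In lipogenesis, citrate that leaves the mitochondria is cleaved to acetyl-CoA, carboxylated to malonyl-CoA and built into palmitate, which is then desaturated and elongated. Malonyl-CoA also inhibits the enzyme encoded by Cpt1b, and in the heart, which burns fatty acids and makes few of them, this brake is the best known use of malonyl-CoA. The sterol regulatory element-binding proteins, encoded by Srebf1 and Srebf2, are transcription factors held in the endoplasmic reticulum while sterols are plentiful. When sterols fall, the proteins travel to the Golgi, are cut free and enter the nucleus, where they drive genes of fatty acid and sterol synthesis.

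Values are counts per peak divided by size factors, called normalized counts here, and differences are on the scale of log2(normalized count + 1), Cpt1bcKO minus CtrlCre. Each library held between 763133 and 2766416 counts in peaks, and the shallowest was CtrlCre replicate 2, in which 3 counts were worth 6.97 normalized counts. Because size factors centre the libraries on most peaks, a uniform gain or loss of H3K4me3 would not be visible. By western blot of sorted CM nuclei, the paper reports a lower H3K4me3 level in Cpt1bcKO. Higher and lower here are relative to most peaks, not to the total level. Fewer marked nuclei and less H3K4me3 per nucleus could not be told apart in these bulk libraries. H3K4me3 at Cpt1b itself, which does not test the deletion, was 428, 407 and 436 in the CtrlCre libraries and 572, 689 and 568 in the Cpt1bcKO libraries (log2 difference 0.52 ± 0.10 SE, adjusted p = 0.00357, limma). All 10 CM marker genes had a peak of their name, with summed normalized counts of 7954 to 9529 in CtrlCre and 6248 to 8851 in Cpt1bcKO. The log2 difference was negative at 8 of the 10 (48.8% of all tested peaks) and positive at 2. An unadjusted p under 0.05 was reached by 4 (limma; 12.8% of all tested peaks), and 0 passed the adjusted threshold of 0.05. None of 8 macrophage markers had a peak of their name, and of 8 endothelial and 8 fibroblast markers 1 each had one (Kdr and Pdgfra). Kdr had 39, 91 and 64 in CtrlCre and 31, 45 and 51 in Cpt1bcKO, with overlap (limma adjusted p = 0.382). Pdgfra had 69, 58 and 68 against 59, 56 and 63, also with overlap. A peak named for Gm20532 held 5 starts of the endothelial marker Egfl7 and was not counted. Mural markers had a peak at 4 of 6 genes (not at Pdgfrb or Rgs5), and their sum was 163 to 261 in CtrlCre and 52 to 122 in Cpt1bcKO. Within it Acta2 had 97, 119 and 71 against 29, 10 and 24 (log2 difference -2.23, limma adjusted p = 7.36e-05). Cspg4 was lower without overlap but did not pass the test (-1.05, adjusted p = 0.061). Myh11 had 18, 14 and 27 against 15, 6 and 15, with overlap, and Kcnj8 had a mean of 28.33 in both genotypes. Adipocytes, which also express lipogenic genes, were represented by Cebpa, Pparg and Lipe, all of which other cells express, whereas Adipoq, Plin1, Cidec, Lep and Retn had no peak. The sum over these 3 peaks was 429 to 500 in CtrlCre and 460 to 516 in Cpt1bcKO. Within it Pparg, the nuclear receptor of fat cell formation, rose from 130, 126 and 129 to 199, 159 and 178 (log2 difference 0.47, limma adjusted p = 0.0216), and Cebpa had a log2 difference of -0.24 that did not pass the test. The part of the lower mural sum and of the higher Pparg signal in the results was not tested.

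Among the 10 peaks, Fasn fell in Cpt1bcKO CMs and no other passed the test at an adjusted p under 0.05 (limma with Benjamini-Hochberg adjustment over 15039 tested peaks). Of all tested peaks, 2.93% passed this threshold, 1.82% as lower and 1.11% as higher. An unadjusted p under 0.05 was reached by 4 of the 10 peaks and by 12.8% of all tested peaks. At 5 of the 10 peaks no Cpt1bcKO library fell within the CtrlCre range or the reverse, against 16.3% of all tested peaks. At 4 of the 10 (Fasn, Scd2, Elovl5 and Acly) the genotypes did not overlap and Cpt1bcKO was lower, against 8.46% of all tested peaks. At Acacb they did not overlap either, and Cpt1bcKO was higher. The median log2 difference over the 10 peaks was -0.13, and over all tested peaks it was 0.0057. All 10 peaks passed the filter on low values, a mean of at least 10 normalized counts.

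**Figure D1:**
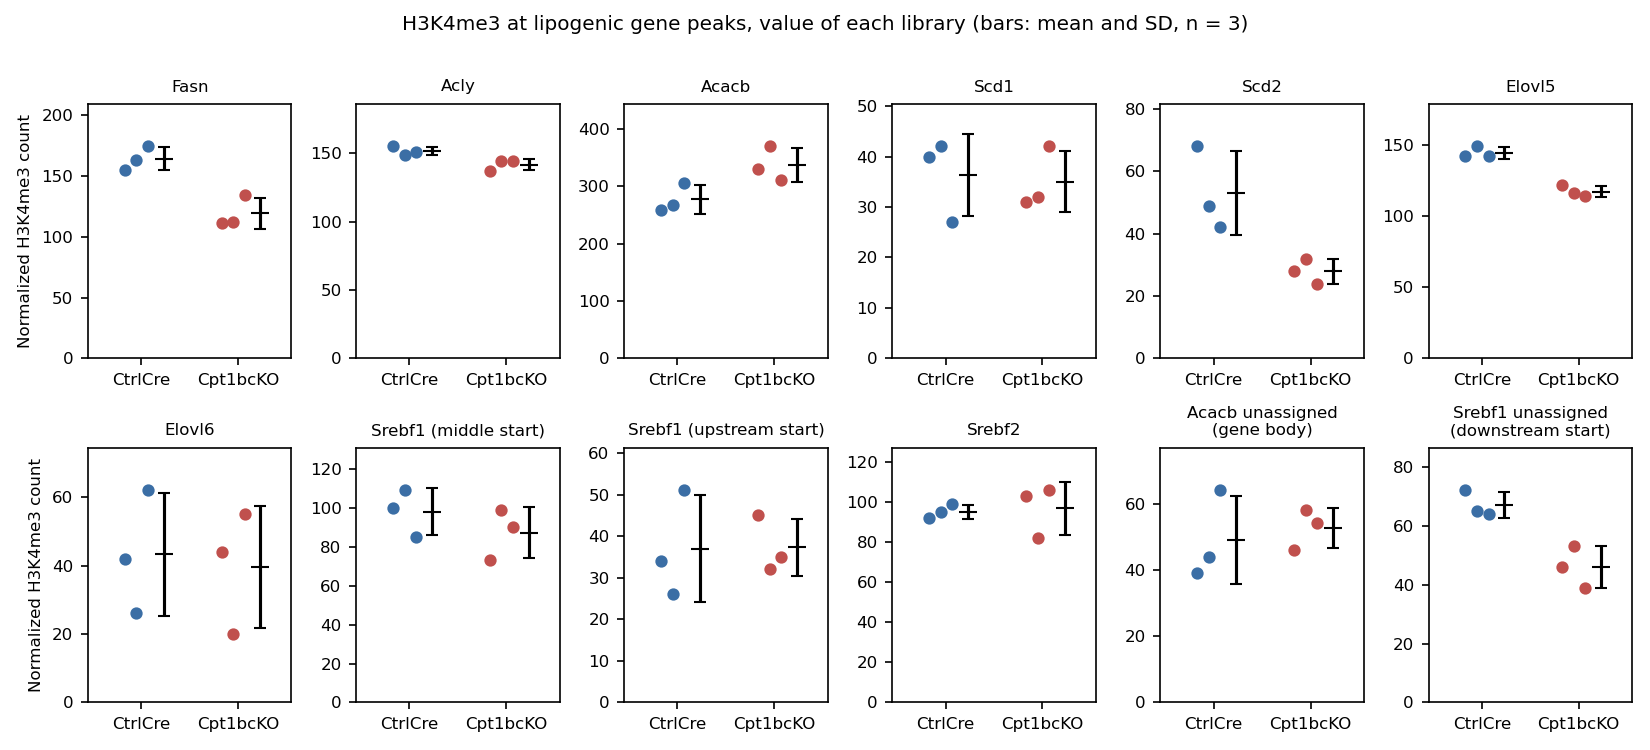
Normalized H3K4me3 count (vertical axis, from 0) of each CtrlCre library (blue) and Cpt1bcKO library (red) at the 10 peaks and at 2 unassigned peaks inside Acacb and Srebf1; black bars are the mean and SD of 3 libraries. The genotypes separate at Fasn, Scd2 and Elovl5, by a gap of 5 normalized counts at Acacb and Acly, and at the unassigned Srebf1 peak.

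The carbon supply and synthesis enzymes were led by Fasn, the fatty acid synthase that builds palmitate from malonyl-CoA. Its peak (chr11:120823250-120825098, build GRCm38, gene on the minus strand) covered the annotated starts of 3 transcripts, with 56.7% of its length in exons, 13.5% in introns and 29.8% upstream of the gene. The peak contained the whole promoter window of the RefSeq transcript, 250 bases before to 50 after its start (chr11:120824498-120824797, minus strand, GRCm38.p6). It is shown because it underlies the only called difference in the set. Capitals mark CCAAT or its reverse complement ATTGG.

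Fasn: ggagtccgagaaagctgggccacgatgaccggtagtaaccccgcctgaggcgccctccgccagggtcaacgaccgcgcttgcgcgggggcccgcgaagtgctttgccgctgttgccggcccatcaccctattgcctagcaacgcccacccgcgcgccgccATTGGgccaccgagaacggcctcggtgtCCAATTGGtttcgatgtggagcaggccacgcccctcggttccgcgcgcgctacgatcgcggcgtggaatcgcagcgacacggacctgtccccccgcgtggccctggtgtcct

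CCAAT, the binding motif of the factor NF-Y, occurred 3 times, and the last 2 matches shared bases in the run CCAATTGG. The window had 39 CpG dinucleotides, where the median of 32851 RefSeq promoters was 7. The other RefSeq windows of the set exceeded this median too, from 10 at Acacb to 36 at a start of Srebf1. The Fasn peak had 155, 163 and 174 normalized counts in CtrlCre and 111, 112 and 134 in Cpt1bcKO. Every Cpt1bcKO library lay below every CtrlCre library. The mean fell by 27.4%, from 164 ± 9.54 to 119 ± 13.0 (SD, n = 3). On the log2 scale the difference was -0.46 (SE 0.12, 95% interval -0.71 to -0.22, limma adjusted p = 0.0297). The direction held when any library was left out, but the adjusted p was 0.0737 without CtrlCre replicate 1, 0.127 without CtrlCre replicate 3, 0.157 without Cpt1bcKO replicate 1 and 0.131 without Cpt1bcKO replicate 2. It was 0.189 when the variance was not modelled as a trend of the mean, and 0.0273 with limma-voom on whole counts.

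Acly encodes ATP citrate lyase, which makes the acetyl-CoA for the pathway. Its peak (chr11:100527003-100528603, minus strand) covered 3 transcript starts and gave 155, 149 and 151 normalized counts in CtrlCre and 137, 144 and 144 in Cpt1bcKO. The genotypes did not overlap, yet the highest Cpt1bcKO library was only 5 normalized counts below the lowest CtrlCre library. The log2 difference of -0.10 had a 95% interval from -0.32 to 0.13 (limma adjusted p = 0.794). This interval overlapped with that of Fasn (-0.71 to -0.22), and whether the 2 genes differed was not tested.

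Acacb encodes the acetyl-CoA carboxylase of the outer mitochondrial membrane, the source of malonyl-CoA next to Cpt1b. Its peak (chr5:114145697-114152371, plus strand) was 6674 bases wide, wider than 98.6% of tested peaks, and lay mostly in introns (83.1%) around the start of the transcript Acacb-202. Normalized counts were 258, 267 and 306 in CtrlCre and 329, 369 and 311 in Cpt1bcKO. It was the only peak of the set at which all Cpt1bcKO libraries exceeded all CtrlCre libraries, by a gap of 5 normalized counts. The log2 difference of 0.28 (SE 0.10, 95% interval 0.07 to 0.49) did not pass the test (limma adjusted p = 0.184). Further into the gene, an unassigned peak (chr5:114175518-114176743) over the start of Acacb-205 had 39, 44 and 64 normalized counts in CtrlCre and 46, 58 and 54 in Cpt1bcKO, with overlapping genotypes (0.13, adjusted p = 0.886). The start of Acacb-201, which is the RefSeq promoter of the gene, lay in no peak.

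The desaturases Scd1 and Scd2 insert the unsaturated bond of oleate and palmitoleate, and both genes lie on chromosome 19. The Scd2 peak (chr19:44293690-44294902, plus strand) began 16 bases downstream of the main transcript start. It had 68, 49 and 42 normalized counts in CtrlCre and 28, 32 and 24 in Cpt1bcKO, so the genotypes did not overlap and CtrlCre replicate 1 stood highest. The mean was 53 ± 13.5 in CtrlCre and 28 ± 4 in Cpt1bcKO (SD, n = 3), and the log2 difference of -0.88 (SE 0.25, 95% interval -1.40 to -0.35) was the most negative in the set. It missed the threshold (limma adjusted p = 0.0627) and passed it with limma-voom on whole counts (-0.93, adjusted p = 0.040). Counts behind these values were low, with 21 in the CtrlCre library of least depth, where counting error alone was 21.8%.

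Scd1, the form expressed in liver and fat, had its peak at chr19:44407334-44408612 on the minus strand, over 2 transcript starts. Normalized counts were 40, 42 and 27 in CtrlCre and 31, 32 and 42 in Cpt1bcKO, and the genotypes overlapped. The log2 difference was -0.04, and its 95% interval from -0.59 to 0.51 contained changes as large as that at Fasn.

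The elongases add carbon pairs to fatty acids, Elovl5 to polyunsaturated chains and Elovl6 to palmitate. The peak of Elovl5 (chr9:77916766-77918325, plus strand) covered 2 transcript starts and held the whole RefSeq promoter window (chr9:77917115-77917414). The window is shown because it is the only one of the set with the E-box CACGTG, a motif bound by SREBPs and other basic helix-loop-helix factors; capitals mark this motif and CCAAT or ATTGG.

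Elovl5: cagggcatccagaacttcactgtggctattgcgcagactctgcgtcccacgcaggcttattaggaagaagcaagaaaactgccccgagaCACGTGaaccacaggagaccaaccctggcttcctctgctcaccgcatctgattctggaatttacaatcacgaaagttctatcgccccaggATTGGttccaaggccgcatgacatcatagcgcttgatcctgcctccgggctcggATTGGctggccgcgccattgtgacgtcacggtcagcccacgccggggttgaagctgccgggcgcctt

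Normalized counts at Elovl5 were 142, 149 and 142 in CtrlCre and 122, 116 and 114 in Cpt1bcKO. The libraries of each genotype lay within 8 normalized counts of each other, and a gap of 20 separated the genotypes. The log2 difference was -0.30 (SE 0.11, 95% interval -0.53 to -0.06), with an adjusted p of 0.227 (limma). The Elovl6 peak (chr3:129532935-129534283, plus strand) lay wholly in an intron, 208 bases past the nearest transcript start, and missed the RefSeq promoter window. It had the largest SE of the 10 peaks, with 42, 26 and 62 normalized counts in CtrlCre and 44, 20 and 55 in Cpt1bcKO. Both genotypes had libraries between 26 and 55, and the genotypes overlapped (log2 difference -0.16, SE 0.33, adjusted p = 0.911).

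Srebf1 encodes SREBP forms that begin at alternative first exons. The files named 2 peaks for it, and a further peak without a gene name lay inside the gene, so that H3K4me3 was measured at an upstream, a middle and a downstream start on the minus strand of chromosome 11. The upstream peak (chr11:60222316-60223253) covered the start of the noncoding Srebf1-204 and gave 34, 26 and 51 normalized counts in CtrlCre and 45, 32 and 35 in Cpt1bcKO. The middle peak (chr11:60219737-60220691) covered the start of Srebf1-201 and gave 100, 109 and 85 in CtrlCre and 73, 99 and 90 in Cpt1bcKO. The genotypes overlapped at both, with log2 differences of 0.05 (95% interval -0.51 to 0.62) and -0.17 (-0.49 to 0.15) and limma adjusted p-values of 0.974 and 0.730.

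The unassigned peak (chr11:60208572-60210995) held the downstream start of Srebf1-207, and it was chosen for description after its values were seen. It gave 72, 65 and 64 normalized counts in CtrlCre and 46, 53 and 39 in Cpt1bcKO, and all Cpt1bcKO libraries were below all CtrlCre libraries. The log2 difference of -0.54 (SE 0.19, 95% interval -0.95 to -0.14) did not pass the test (limma adjusted p = 0.180), and whether it differed from those at the other starts was not tested. The RefSeq windows of the middle start (chr11:60220578-60220877, of which 114 of 300 bases lay in the peak) and the downstream start (chr11:60210422-60210721, all within the peak) are shown to set the alternative promoters side by side. Capitals mark CCAAT or ATTGG, which of these windows only the downstream one contained.

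Srebf1 middle start: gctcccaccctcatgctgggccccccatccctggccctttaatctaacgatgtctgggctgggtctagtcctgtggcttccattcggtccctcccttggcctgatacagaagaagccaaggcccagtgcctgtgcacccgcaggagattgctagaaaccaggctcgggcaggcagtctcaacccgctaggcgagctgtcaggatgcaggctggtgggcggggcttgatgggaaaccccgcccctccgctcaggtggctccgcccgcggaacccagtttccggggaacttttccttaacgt
Srebf1 downstream start: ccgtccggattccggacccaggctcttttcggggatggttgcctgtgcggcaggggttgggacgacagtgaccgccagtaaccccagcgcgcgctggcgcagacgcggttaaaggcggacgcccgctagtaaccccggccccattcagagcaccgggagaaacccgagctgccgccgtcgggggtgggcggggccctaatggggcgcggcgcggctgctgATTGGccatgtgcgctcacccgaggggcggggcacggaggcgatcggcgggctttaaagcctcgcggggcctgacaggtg

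The downstream window had 36 CpG dinucleotides and the middle window 14. Both contained the GC box GGGCGG, the motif of the factor Sp1, as did 35.7% of all RefSeq promoters.

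Srebf2 encodes the SREBP that mainly drives cholesterol synthesis. Its peak (chr15:82146544-82148151, plus strand) covered 6 transcript starts and the whole RefSeq window (chr15:82147019-82147318), which is shown beside those of Srebf1 because it holds 5 GC boxes and 1 ATTGG match (capitals).

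Srebf2: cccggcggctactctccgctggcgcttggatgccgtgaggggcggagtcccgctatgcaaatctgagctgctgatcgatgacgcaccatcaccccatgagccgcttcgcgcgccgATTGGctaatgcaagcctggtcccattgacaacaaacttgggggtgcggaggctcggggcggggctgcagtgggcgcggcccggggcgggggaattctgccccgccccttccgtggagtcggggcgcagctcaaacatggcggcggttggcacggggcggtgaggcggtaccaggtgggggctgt

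Srebf2 had 92, 95 and 99 normalized counts in CtrlCre and 103, 82 and 106 in Cpt1bcKO. The CtrlCre range lay inside the Cpt1bcKO range. The log2 difference was 0.02, with a 95% interval of -0.28 to 0.31 (limma adjusted p = 0.983). This interval overlapped with that of Fasn (-0.71 to -0.22), and whether the 2 genes differed was not tested.

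**Figure D2:**
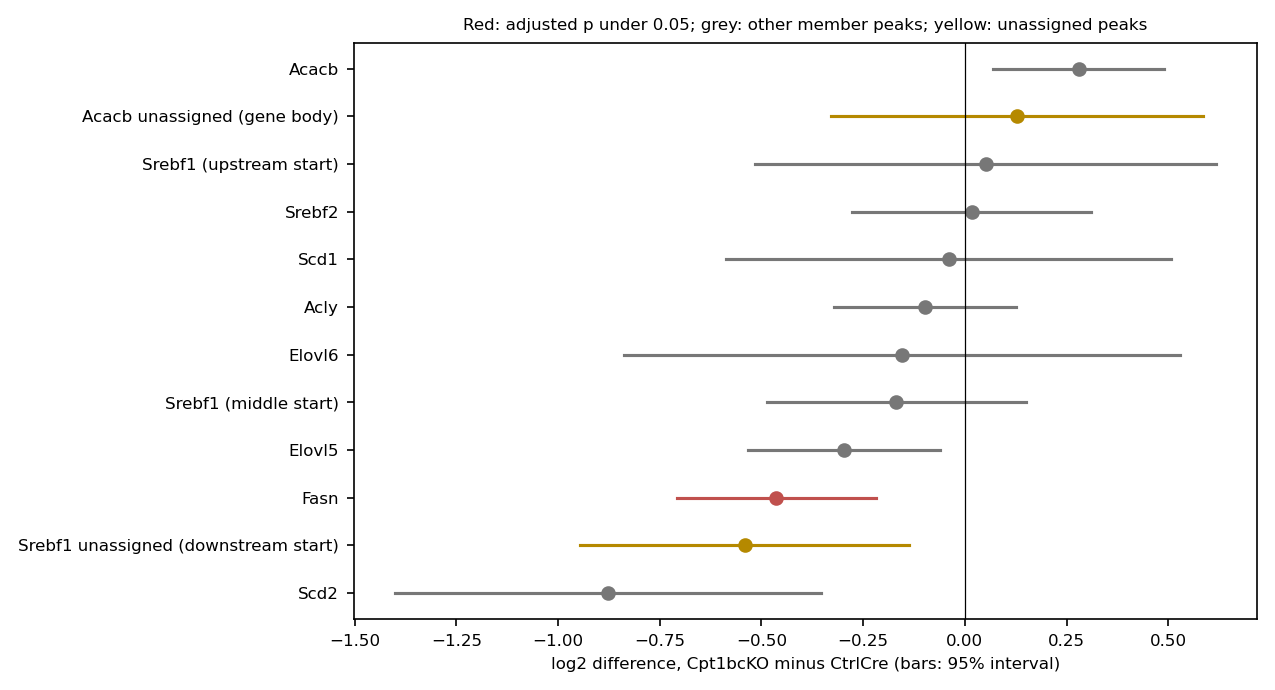
Log2 difference, Cpt1bcKO minus CtrlCre (horizontal axis), with its 95% interval from limma for the 10 peaks of the set (red where the adjusted p was under 0.05, grey otherwise) and for the unassigned peaks inside Srebf1 and Acacb (yellow). Fasn is the only red point, Scd2 has the most negative difference, at -0.88, and Acacb the most positive, at 0.28.

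RefSeq promoter windows of 300 bases were found for 7 of the 9 genes, 9 windows in all. Scd1 and Scd2 had none. The search covered both strands for 5 motifs. CCAAT was in 7 of the 9 windows and in 37.4% of all 32851 RefSeq windows. The core of the sterol regulatory element, written TCACNCCAC, had no match in the 9 windows and one in 1.24% of all windows. The E-box was in 7.15% and the TATA box TATAAA in 13.6% of all windows. In the set the E-box was found at Elovl5 and TATAAA at Acacb. A match describes letters only and was not tested as a binding site.

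Levels were compared between genes as CtrlCre normalized counts per kilobase of peak. The highest level was at the middle start of Srebf1 (103 ± 12.7, SD, n = 3), followed by Acly (94.8 ± 1.91), Elovl5 (92.6 ± 2.59) and Fasn (88.7 ± 5.16). The library ranges of neighbours in this order overlapped among these 4. Srebf2 followed at 59.3 ± 2.19 and overlapped with neither neighbour. The lower group ran from Scd2 (43.7 ± 11.1), Acacb (41.5 ± 3.82) and the upstream start of Srebf1 (39.5 ± 13.6) to Elovl6 (32.1 ± 13.4) and Scd1 (28.4 ± 6.37), and each of these overlapped with the next. The median of all tested peaks was 60.4 normalized counts per kilobase. In width, 8 of the 10 peaks lay between 1212 and 6674 bases and both Srebf1 peaks were under 1000, where the median of tested peaks was 1514.

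**Figure D3:**
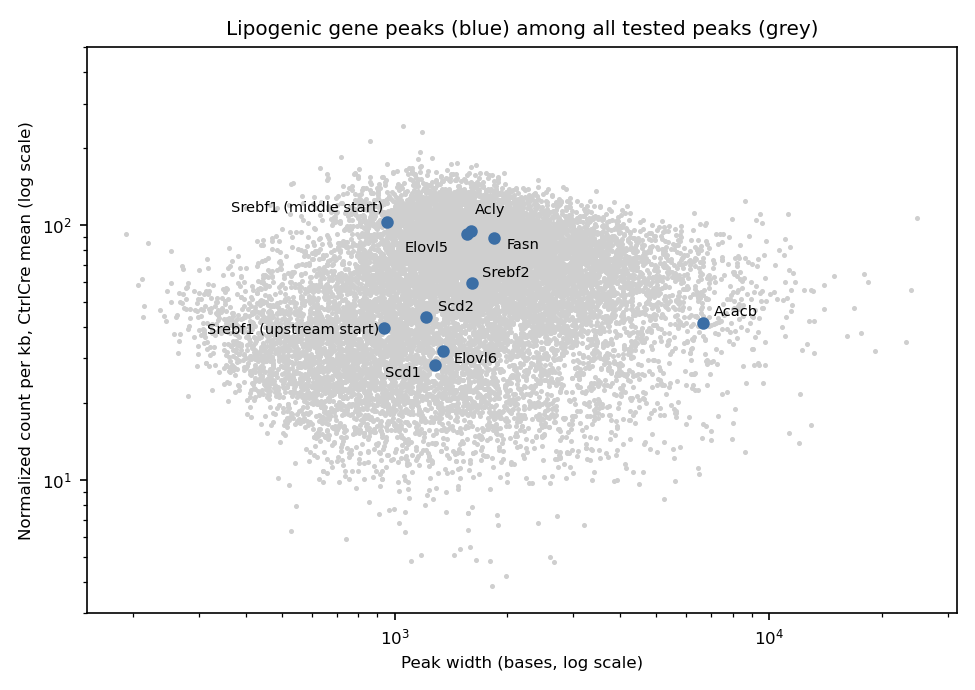
Peak width in bases (horizontal axis, log scale) against the mean normalized count per kilobase in CtrlCre (vertical axis, log scale) for all 15039 tested peaks (grey) and the 10 peaks of the set (blue). Acacb is set apart by its width of 6674 bases, and Acly, Elovl5, Fasn and the middle start of Srebf1 lie at 88.7 to 103 normalized counts per kilobase.

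Peaks within 100 kb of the set were compared to see whether its differences extended to neighbours. Of 15 tested peaks that carried another gene name, 0 passed an adjusted p under 0.05 and 0 an unadjusted p under 0.05 (limma), and none passed with limma-voom. Of all tested peaks, 2.93% and 12.8% passed these limma thresholds. The genotypes did not overlap at 1 of the 15, Dcxr near Fasn, by a gap of 1 normalized count, against 16.3% of all tested peaks. The nearest to Fasn was that of Dus1l, 28040 bases away, with 135, 128 and 151 normalized counts in CtrlCre and 123, 128 and 147 in Cpt1bcKO. The genotypes overlapped there (log2 difference -0.06, 95% interval -0.31 to 0.19). The nearest named peaks of Acacb (Ung, 16496 bases away), Acly (Ttc25, 17876) and Srebf2 (Ccdc134, 19385) had overlapping genotypes and adjusted p-values of 0.957, 0.481 and 0.908. Elovl5, Elovl6, Scd1, Scd2 and Srebf1 had no named tested peak in the window.

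Of 12 tested peaks in these windows without a gene name, 0 passed the adjusted threshold and 4 an unadjusted p under 0.05 (limma; 12.8% of all tested peaks). Cpt1bcKO was lower at 9 of the 12, where 48.8% of all tested peaks had a negative log2 difference. The genotypes did not overlap at 4, against 16.3% of all tested peaks. The Scd3 peak described below is in both counts of 4, and there Cpt1bcKO was higher. The nearest to Scd2, 9797 bases away, had 52, 51 and 37 normalized counts in CtrlCre and 42, 36 and 12 in Cpt1bcKO, with overlapping genotypes (adjusted p = 0.319). Another, 43662 bases from the middle Srebf1 peak, had 144, 128 and 117 in CtrlCre and 98, 97 and 86 in Cpt1bcKO. The genotypes did not overlap there, and the adjusted p was 0.0574. At a peak of 281 bases over the start of Scd3, a desaturase gene beside Scd2, the values were 8, 7 and 3 in CtrlCre and 25, 12 and 15 in Cpt1bcKO. This was the opposite order to Scd2, with a limma adjusted p of 0.197. Values as low as 7 in CtrlCre replicate 2 equal about 3 counts. The CtrlCre mean of 6 lay below the filter on low values, which the peak passed only through the Cpt1bcKO mean of 17.3. A peak this low in CtrlCre could be tested only if it was higher in Cpt1bcKO, so no contrast with Scd2 is drawn from it.

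**Figure D4:**
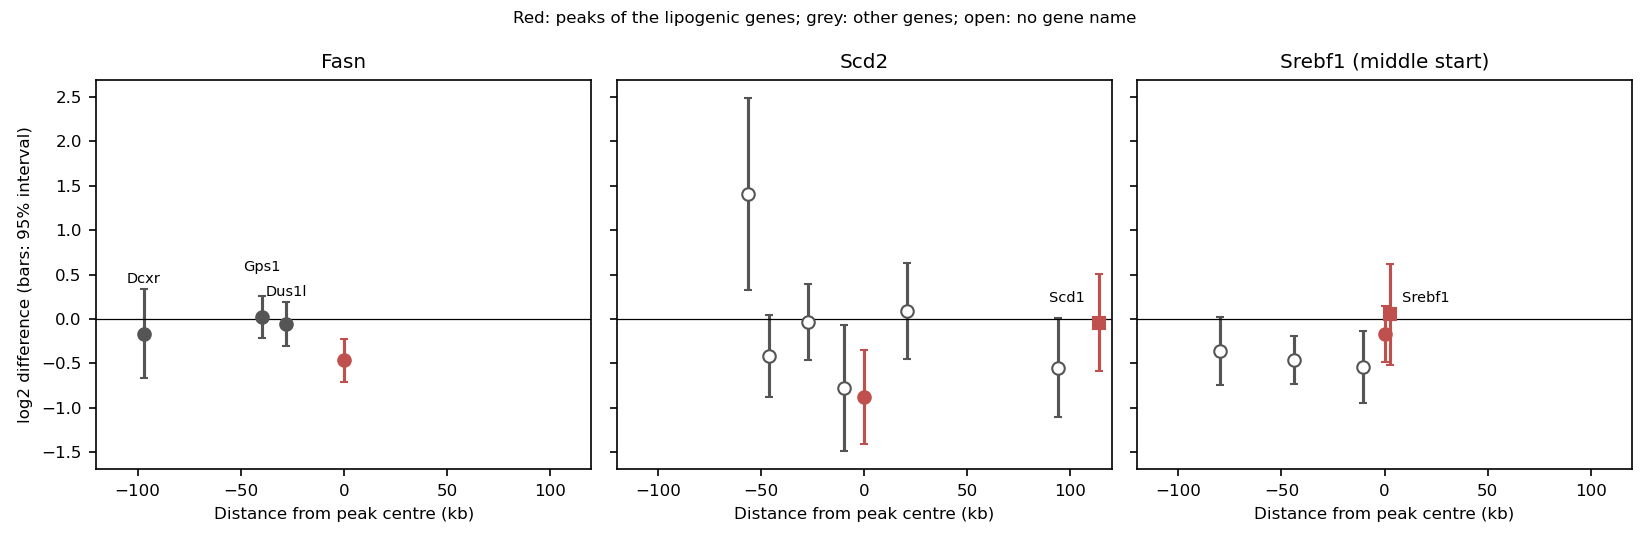
Log2 difference, Cpt1bcKO minus CtrlCre, with its 95% interval (vertical axis) against the distance from the centre of the Fasn, Scd2 or middle Srebf1 peak in kb (horizontal axis), for peaks of the set (red), of other genes (grey) and without a gene name (open). Dus1l, Gps1 and Dcxr near Fasn have intervals that contain 0, whereas that of Fasn does not.

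The other genes of the pathways were grouped in 4 lists, taking the strongest peak of each gene. Of 77 genes, 66 had a tested peak, and 2 rose, 0 fell and 64 did not pass the test. This compares with 1.11% of all tested peaks that were called higher and 1.82% lower.

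Among other fatty acid synthesis genes 22 of 27 were tested, 1 rose and none fell, with 5 at an unadjusted p under 0.05 (limma; 12.8% of all tested peaks) and a median log2 difference of 0.02. Mlxipl, which encodes the glucose-responsive factor ChREBP, a driver of Fasn and Acly in liver, rose. It had 133, 105 and 113 normalized counts in CtrlCre and 184, 161 and 153 in Cpt1bcKO, and the genotypes did not overlap (log2 difference 0.50, SE 0.12, limma adjusted p = 0.0223). Leaving out CtrlCre replicate 2 or 3 or Cpt1bcKO replicate 1 or 2 ended this call. The next smallest p-values were at Fads2, a desaturase of polyunsaturated fatty acids (-0.66, adjusted p = 0.184), and Aacs, which activates acetoacetate for lipid synthesis (0.41, adjusted p = 0.230). Acaca, the cytosolic partner of Acacb, had no peak of its name. An unassigned peak over 3 of its starts had a log2 difference of 0.11 (95% interval -0.15 to 0.37).

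Among genes of sterol synthesis and uptake 22 of 25 were tested and none passed the adjusted test, with 3 at an unadjusted p under 0.05 (limma; 12.8% of all tested peaks) and a median of -0.06. Limma-voom likewise called none. The squalene epoxidase gene Sqle had 40, 60 and 44 normalized counts in CtrlCre and 83, 59 and 81 in Cpt1bcKO, with overlap between CtrlCre replicate 2 and Cpt1bcKO replicate 2 (0.63, adjusted p = 0.122). Without CtrlCre replicate 2 it passed the test (0.79, adjusted p = 0.0306). Mvd, of the mevalonate branch, had 125, 112 and 132 normalized counts in CtrlCre and 86, 110 and 102 in Cpt1bcKO, without overlap (-0.31, adjusted p = 0.310).

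All 12 genes of SREBP processing and of the liver X receptors (LXRs), oxysterol sensors that induce Srebf1, were tested and none passed, with 2 at an unadjusted p under 0.05 (limma; 12.8% of all tested peaks) and a median of 0.09. Apoe, a lipoprotein component and LXR target, had 31, 46 and 30 normalized counts in CtrlCre and 59, 59 and 60 in Cpt1bcKO. The genotypes did not overlap (0.75, SE 0.22, adjusted p = 0.0809). It passed with limma-voom (adjusted p = 0.0266) and without CtrlCre replicate 2 (0.0188). Insig1, which retains SREBPs in the endoplasmic reticulum, had 147, 151 and 152 in CtrlCre and 187, 179 and 173 in Cpt1bcKO, without overlap (0.26, adjusted p = 0.262). Nr1h3, which encodes an LXR, had a log2 difference of 0.52 (adjusted p = 0.430). Scap, the escort of SREBPs, had one of 0.12 (adjusted p = 0.888).

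Of 13 genes of glycerolipid synthesis 10 were tested, 1 rose and none fell, with a median of 0.13. Of these 10, the gene that rose was the only one at an unadjusted p under 0.05 (limma; 12.8% of all tested peaks). Agpat2, an acyltransferase that makes phosphatidic acid, rose from 138, 156 and 143 normalized counts in CtrlCre to 245, 279 and 189 in Cpt1bcKO. All Cpt1bcKO libraries exceeded all CtrlCre libraries, with a log2 difference of 0.69 (SE 0.12, 95% interval 0.43 to 0.94, limma adjusted p = 0.00172). The call held when any single library was left out but, like that of Mlxipl, not without the variance trend. Dgat2, which completes triglycerides, had 397, 346 and 488 in CtrlCre and 536, 546 and 383 in Cpt1bcKO, with overlap (0.25, adjusted p = 0.445), and Lpin2, a phosphatidate phosphatase, had a log2 difference of -0.31 (adjusted p = 0.466). Lpin3 had no peak of its name and was not among the 10. An unassigned peak over 3 of its starts had 40, 44 and 59 in CtrlCre and 63, 66 and 64 in Cpt1bcKO, without overlap. Its log2 difference was 0.44 (limma unadjusted p = 0.0366, adjusted p = 0.336).

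**Figure D5:**
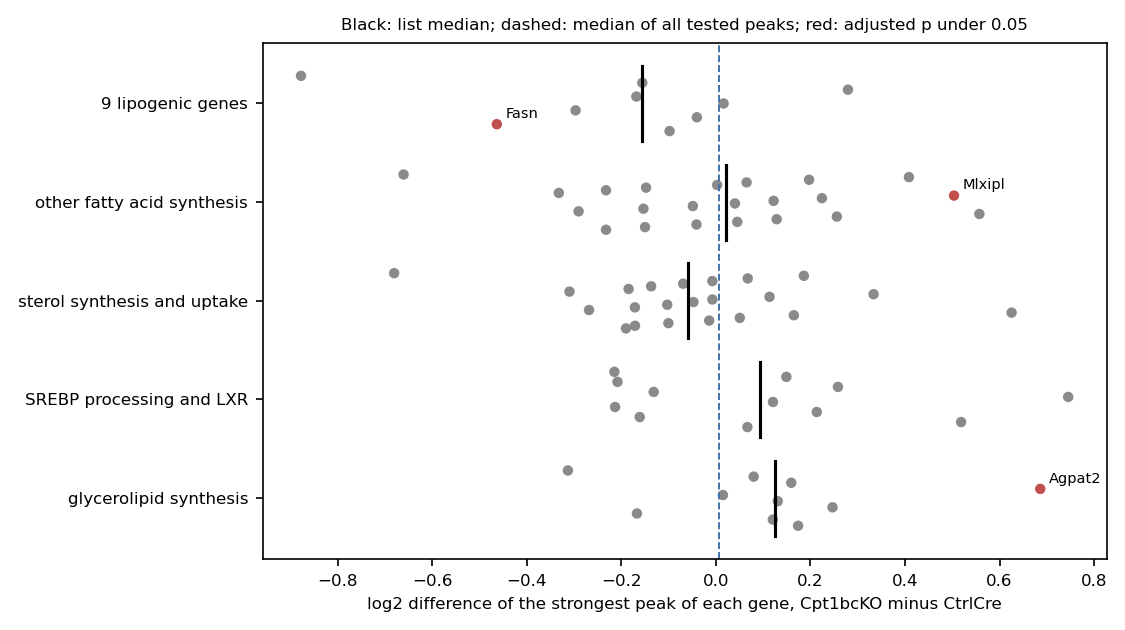
Log2 difference, Cpt1bcKO minus CtrlCre (horizontal axis), of the strongest peak of each tested gene in the 9-gene set and 4 pathway lists; points are genes, red where the adjusted p was under 0.05, black lines are list medians and the dashed line is the median of all tested peaks. Fasn lies at -0.46, Mlxipl at 0.50 and Agpat2 at 0.69, and the list medians run from -0.16 to 0.13.

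The 5 named peaks most like Fasn across the 6 libraries, by Pearson's r of log2 values among 9326 named peaks with a mean of at least 50, were those of Pirt (0.99), Prr12 (0.99), Pde5a (0.99), Kcnip2 (0.98) and Rhbdl3 (0.98). At r of at least 0.95 there were 34 such peaks. Within the set, r with Fasn was 0.84 at Elovl5, 0.83 at Acly, 0.67 at Scd2 and -0.76 at Acacb. The 6 points share the genotype contrast, and these values are a description.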

How the data were processed

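ChIP–seq for H3K4me3 was performed on sorted adult CM nuclei. The authors trimmed reads with Trimmomatic 0.39, aligned them to mm10 (GRCm38) with STAR 2.6.1d, keeping unique unspliced alignments, removed duplicates with Picard 2.21.7, called peaks with MUSIC against input libraries, and merged them into 15848 union peaks, each named for the nearest promoter within 5000 bases. The deposited value of a library is a score. It is the count per union peak, made by the authors with bigWigAverageOverBed, divided by DESeq2 1.26.0 size factors and rounded to whole numbers. The deposited genotype means are an unrounded signal of the same kind. The authors also deposited the fraction of a peak in the gene body and its distance to the start site, which entered no test. The deposited fold changes and p-values of the authors' own comparison were not used, and input libraries were not analysed here.

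Peaks with a mean of at least 10 were tested on log2(value + 1) with limma 3.58.1 (R 4.3.3; genotype as the only term, variance trend, 95% intervals, Benjamini-Hochberg adjustment over all 15039). The fit was tested on simulated data with planted changes larger than any in the set, and smaller changes were not simulated. Whole counts were recovered from the rounded values and the unrounded means for 15848 of 15848 peaks (to within 5e-06) and served for depth and limma-voom. Counting errors treat the recovered counts as independent reads, which was not checked, and intervals from counts cover counting error only. Exons and starts are from GENCODE vM21, promoters from RefSeq. Coordinates are those of the deposited table, and widths are end minus start. The members and gene lists were chosen with earlier results of these data known. Genes of the other lists were named if their adjusted p was under 0.05, and otherwise by the smallest p up to 3 per list; Acaca, Scd3, Scap and unassigned peaks were added after their values were seen. Gene lists were matched by symbol or Ensembl identifier, and some genes of the lists are counted but not reported here by name.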

Additional observations from a re-analysis of the deposited data

How the results depend on the processing

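The 15 alternatives were a pseudocount of 0.5 or 5, no filter, a mean of at least 50, quantile or median-centred scaling, no variance trend, limma-voom on whole counts, a replicate block, and each library left out. Fasn was lower under all of them (adjusted p 0.0242 to 0.189), and so were Scd2, at a log2 difference of -0.69 to -1.03 with a library left out (adjusted p 0.040 to 0.364 over the alternatives that tested it), Elovl5 and Acly, while Acacb was higher under all. The number of peaks of the set past the threshold was 1. It was 0 without the variance trend, where 43 peaks of all passed in place of 441, 2 with limma-voom and 0 to 1 with a library left out. The median log2 difference of the set was -0.19 to -0.047 with a library left out. The 4 pathway lists held 2 genes past the threshold, 0 without the trend and 1 to 3 with a library left out (1 without Cpt1bcKO replicate 1 or 2), and neighbouring named peaks gave 0 throughout, settings added after seeing the data.

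Directions turned only at peaks that were not called. Scd1 was at 0.056 with quantile scaling, 0.012 with limma-voom, and -0.24 to 0.074 with a library left out. With limma-voom the upstream Srebf1 peak was at -0.10 and Srebf2 at -0.0073. With a library left out, the upstream Srebf1 peak ranged from -0.17 to 0.30, Srebf2 from -0.052 to 0.13 and Elovl6 from -0.47 to 0.26. The cause was not tested.

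Same-numbered libraries did not deviate together (correlations of 0.08, -0.08 and 0.11), so the numbers were not taken to pair the libraries. With a replicate block the set kept a median log2 difference of -0.13 and 1 called peak, Fasn (adjusted p = 0.0417), the pathway lists 2 called genes and the neighbours 0. Depth limits the peaks of Scd1, Scd2, Elovl6 and the upstream Srebf1 start, which held 11 to 21 counts in CtrlCre replicate 2.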
